A study of Homo sapiens with 8 samples.

Results

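The 17-beta-hydroxysteroid dehydrogenases named HSD17B are a set of enzymes that were first grouped by their action on sex steroids, and 10 of their genes are described here out of 58206 genes in the count table. The 10 genes (HSD17B1, HSD17B2, HSD17B4, HSD17B6, HSD17B8, HSD17B10, HSD17B11, HSD17B12, HSD17B13 and HSD17B14) were taken by their symbols, matched to the Ensembl identifiers of the table. HSD17B2 heads the set because its counts differed most between the groups, so its change is given as a description without a test.

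RNA sequencing had been carried out on Alexander1, an established epithelial line from a human hepatocellular carcinoma. The wt (Axin1 -) group, with 4 libraries, is the line as obtained, whose Axin1, a scaffold of the complex that degrades beta-catenin, lacks its GSK3-binding region, so that Wnt signalling is described as always active. The Axin1 + group, also with 4 libraries, is a stable derivative described as carrying full-length Axin1 from a plasmid. The labels of all 8 samples name the same retroviral transfer and hygromycin B selection of clones, so the derivative may be a single clone, and they do not say whether the replicates of a group were separate cultures. P-values therefore measure the spread between these libraries, which may be technical.

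Libraries held 11232951 to 26400782 counts, and 14289 genes passed the expression filter. Expression is given as CPM, the count per 1e6 of the library total after scaling by TMM factors. AXIN1 itself was not higher in the libraries labelled Axin1+: it was at 52.4 ± 3.49 CPM in the wt libraries and 45.4 ± 5.13 CPM in the others (SD, n = 4 each; log2 fold change -0.21, SE 0.12; edgeR quasi-likelihood test, adjusted p = 0.267). Because the transferred gene does not show as a rise in AXIN1, directions below refer to the labels. The first replicate of each group stood apart in a principal component analysis. The first component (55.9% of variance) placed replicate 1 labelled Axin1+ at 22.2, against 48.7 to 56.8 for the other 3, and the second (21.0%) placed wt replicate 1 at 61.5, against -30.3 to 25.0 for all other libraries. Hepatocyte markers summed to between 23507 and 27364 CPM in the wt libraries and between 18180 and 21665 CPM in those labelled Axin1+. Of these 10 markers, 2 were called higher and 2 lower, beside 10.4% and 8.77% of all tested genes. Leukocyte markers summed to at most 1.25 CPM in any library, with CD3E at 0 in all of them.

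Enzymes of this group belong to the short-chain dehydrogenases, which pass hydride between a nicotinamide cofactor and a hydroxyl or keto group. In the liver, HSD17B2 oxidises estradiol to estrone and testosterone to androstenedione in the endoplasmic reticulum, which lowers hormone activity, whereas HSD17B1 carries out the reverse reduction of estrone in ovary and placenta. Several members carry the family name but act mainly on other substrates: HSD17B4 in peroxisomal beta-oxidation, HSD17B8 and HSD17B10 in mitochondria, HSD17B12 in fatty acid elongation, and HSD17B11 and HSD17B13 on lipid droplets.

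The genes were chosen by symbol without use of the catalytic serine, tyrosine and lysine of this enzyme class, spaced by 12 and 3 residues. Since the class shares this site, its presence in the members is a description and not a test. The coding sequences of all 10 genes in GENCODE release 29 (GRCh38) held exactly 1 in-frame stretch of 54 bases with a serine codon, then 12 codons, a tyrosine codon, 3 codons and a lysine codon. Among 19493 protein-coding genes searched the same way, 1073 (5.5%) held such a stretch. The stretches of HSD17B2 and HSD17B1, which work in opposite directions, of the most abundant member HSD17B10, of HSD17B4, and of the pair HSD17B11 and HSD17B13 are shown 5′ to 3′ on the coding strand, with the codons of the serine, tyrosine and lysine in capitals.
HSD17B2: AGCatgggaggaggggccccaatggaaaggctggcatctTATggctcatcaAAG
HSD17B1: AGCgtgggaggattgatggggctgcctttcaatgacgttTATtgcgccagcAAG
HSD17B10: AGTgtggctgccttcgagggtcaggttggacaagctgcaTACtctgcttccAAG
HSD17B4: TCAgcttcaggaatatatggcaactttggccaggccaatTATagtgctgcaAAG
HSD17B11: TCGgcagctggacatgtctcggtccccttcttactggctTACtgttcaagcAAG
HSD17B13: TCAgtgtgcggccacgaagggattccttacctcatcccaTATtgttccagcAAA

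In HSD17B2 (chromosome 16, 82035004 to 82098534, plus strand, ENSG00000086696) the stretch spans the junction of exons 3 and 4, between genomic positions 82071118 and 82090945, and its 3 codons are numbers 219, 232 and 236 of 387. In HSD17B1 it also spans exons 3 and 4, and its codons are numbers 143, 156 and 160 of 328. Over the 45 pairs of coding sequences the longest identical run was 19 bases, between HSD17B11 and HSD17B13, which lie next to each other on chromosome 4, and the second longest was 14 bases. HSD17B11 and HSD17B13 were identical at 68.7% of 900 aligned coding bases. Pairs with HSD17B4 reached up to 75.0% (of 895 bases, with HSD17B13), but this share counts only bases aligned without a gap. The coding sequence of HSD17B4 has 2208 bases against 900 in HSD17B13, which leaves more room to place gaps. Shares with HSD17B4 therefore cannot be ranked against those of the other pairs. The longest identical run of HSD17B4 and HSD17B13 was 12 bases.

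HSD17B2 was the 1 member whose groups stood clearly apart. Its wt libraries held 74, 297, 209 and 245 counts (replicates 1 to 4), or 6.59, 20.1, 18.6 and 17.5 CPM. The libraries labelled Axin1+ held 8, 0, 1 and 0 counts, or 0.287, 0, 0.0493 and 0 CPM. No library of one group came near the other: the lowest wt library was 22.9-fold above the highest library labelled Axin1+. The means were 15.7 ± 6.17 and 0.0841 ± 0.137 CPM (SD, n = 4 each).

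Summed over each group, 825 counts stood against 9, which is a 154-fold ratio of scaled totals with a 95% interval of 80.6 to 338 that covers counting error only. The fitted log2 fold change was -7.17 (SE 0.65). Of the 14289 tested genes, 2 (0.014%) had a log2 fold change this low or lower, HSD17B2 included. In the 2 libraries with 0 counts, replicates 2 and 4, the limit that a count of 0 allows was 0.248 and 0.117 CPM.

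Within the wt group, replicate 1 held less HSD17B2 than the other 3 libraries, at 41.9% of the group mean. Its exact 95% counting interval ran from 5.17 to 8.27 CPM, below those of replicates 2 to 4, which together covered 15.4 to 22.5 CPM, so the gap was larger than counting error. Without it the wt mean was 18.8 ± 1.29 CPM (SD, n = 3). Within the group labelled Axin1+, replicate 1 gave 8 of the 9 counts, and its interval of 0.124 to 0.565 CPM overlapped that of replicate 3. The fitted value depends on this library: without replicate 1 labelled Axin1+ the log2 fold change was -9.29, and without replicate 1 of both groups it was -9.56. Fewer cells with the transcript and less transcript per cell cannot be told apart in such bulk samples.

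**Figure D1:**
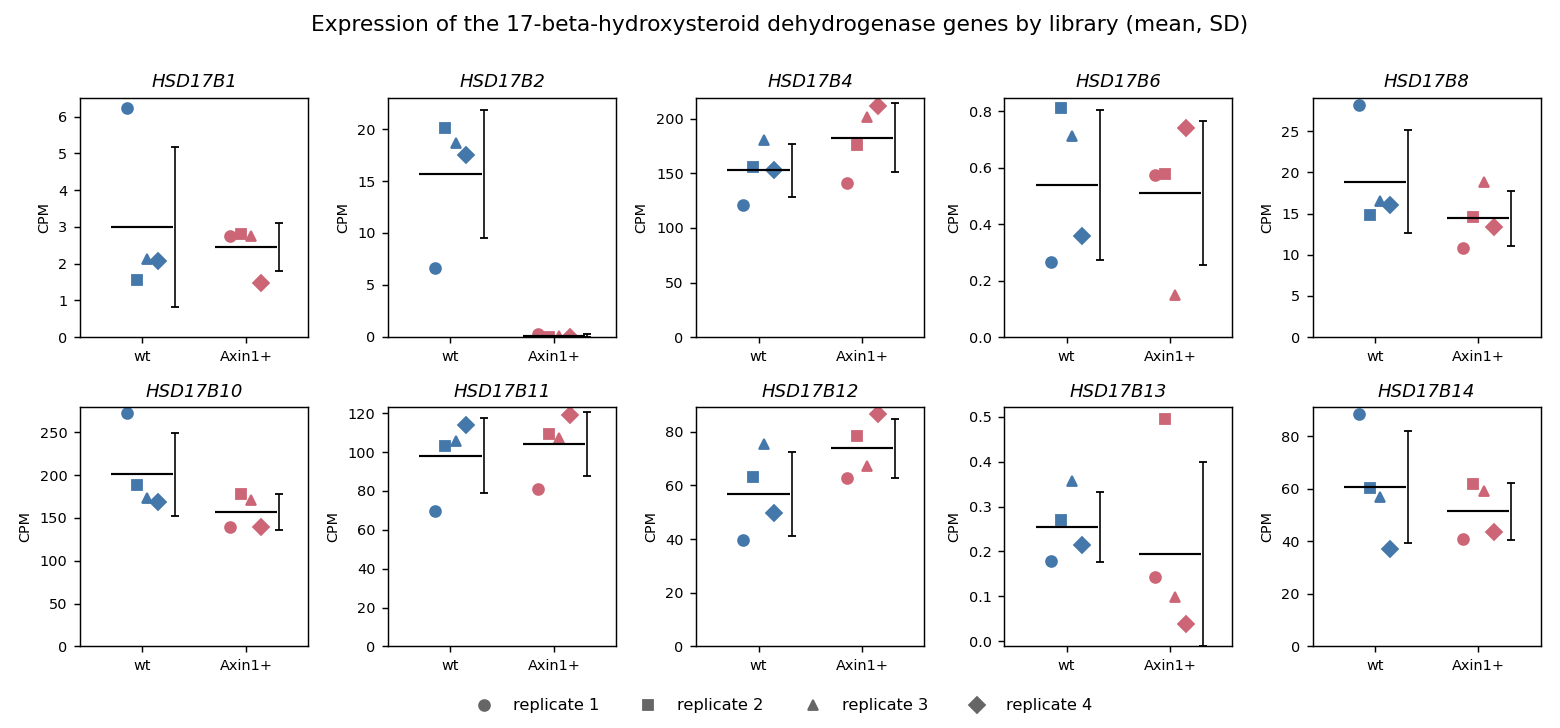
CPM (TMM-scaled) of the 10 genes, 1 panel per gene, with a marker shape for each replicate number, the group mean as a horizontal line and 1 SD as a bar (n = 4 per group, wt in blue and libraries labelled Axin1+ in red). HSD17B2 lies between 6.59 and 20.1 CPM in the wt libraries and at or below 0.287 CPM in the others, whereas in the other 9 panels the groups overlap.

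In each of the other 9 members the groups overlapped. Expression passed the filter in 7 of them, and 0 of these 7 were called by edgeR's quasi-likelihood test (adjusted p from 0.169 to 0.771), while 19.2% of all tested genes were called. The unadjusted p was under 0.05 in 0 of the 7 by edgeR (smallest 0.0607), by DESeq2 (smallest 0.0536) and by limma-voom (smallest 0.0607). Groups without overlap were found in 0 of the 7, against 23.9% of all tested genes (12.7% with higher and 11.2% with lower values in the libraries labelled Axin1+). The estimates were positive for 3 and negative for 4, between 0.08 and 0.39 in size on the log2 scale, with a median of -0.24 beside 0.00 over all tested genes. HSD17B6 and HSD17B13 did not pass the filter. A p that misses the threshold does not show equal expression, so intervals are given for each gene below.

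**Figure D2:**
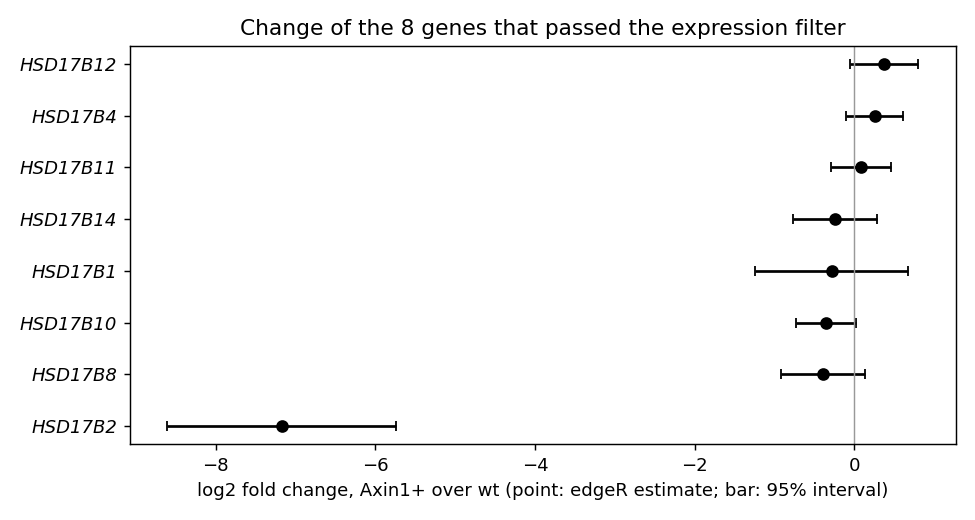
Log2 fold change, libraries labelled Axin1+ over wt, of the 8 genes that passed the expression filter, with the 95% interval of the edgeR fit as a bar. HSD17B2, drawn as a description since it was chosen for its change, lies at -7.17, and the intervals of the other 7 genes include 0.

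Among the members known for sex steroids, HSD17B1 (chromosome 17, 42549214 to 42555213) was scarce. It was at 6.23, 1.56, 2.14 and 2.08 CPM in the wt libraries and at 2.76, 2.81, 2.76 and 1.48 CPM in those labelled Axin1+. Replicate 1 was the highest of the wt libraries and replicate 4 the lowest of the others, and the groups overlapped. Its log2 fold change was -0.28 (SE 0.43, 95% interval -1.24 to 0.67) and turned to 0.34 without wt replicate 1. Exons of HSD17B1 overlap those of the antisense gene HSD17B1-AS1 over 1971 bases. That antisense gene had up to 793 counts in a library and was called higher (log2 fold change 0.59, SE 0.16, adjusted p = 0.0286), and since the use of strand in counting is not given in the sources used here, reads of the pair may not be told apart.

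HSD17B14, a cytosolic enzyme able to oxidise estradiol, was more abundant. It stood at 88.5, 60.4, 57.0 and 37.1 CPM in the wt libraries and at 40.8, 62.0, 59.3 and 43.7 CPM in those labelled Axin1+. The 4 libraries labelled Axin1+ all fell inside the wt range. Its log2 fold change was -0.24 (SE 0.24, 95% interval -0.77 to 0.29), and 0.094 without replicate 1 of both groups.

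HSD17B6, which oxidises androstanediol and retinol, had 3 to 19 counts per library. This was 0.537 ± 0.266 CPM in the wt libraries and 0.510 ± 0.254 CPM in those labelled Axin1+ (SD, n = 4 each). Its values overlapped and it was not tested. Its exons overlap 132 bases of PRIM1 on the opposite strand.

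Active steroids are made from cholesterol by enzymes outside the 10. Of 19 genes of steroid synthesis, 10 were tested, and the median log2 fold change was -0.05. Among the 10, 1 was called higher and 1 lower, beside 10.4% and 8.77% of all tested genes. CYP11A1, HSD3B1 and HSD3B2, needed for the first steps from cholesterol, had 0 counts in every library. SRD5A3, a reductase of dolichol synthesis, was called higher (log2 fold change 0.54, SE 0.16, adjusted p = 0.0381). HSD3B7, an enzyme of bile acid synthesis, was called lower (-0.62, SE 0.17, adjusted p = 0.0265), and FDX1, an electron donor to mitochondrial P450 enzymes, was not called (-0.29, SE 0.11, adjusted p = 0.0983). Neither call held when any 1 library other than replicate 1 of either group was left out (0 of the list called in each case; adjusted p from 0.0505 to 0.0865 for HSD3B7 and from 0.0602 to 0.117 for SRD5A3), whereas 4 genes were called without replicate 1 of either the wt libraries or those labelled Axin1+. FDX1 passed without wt replicate 1 (adjusted p = 0.0382). AKR1C3 and HSD17B7, which also reduce 17-keto steroids, had log2 fold changes of 0.62 (SE 0.30, adjusted p = 0.173) and -0.06 (SE 0.16, adjusted p = 0.835), and AKR1C3 has near-identical paralogs whose reads can be shared. AKR1C3 was at 697, 498, 525 and 380 CPM in the wt libraries (replicates 1 to 4). In those labelled Axin1+ it was at 349, 1005, 972 and 908 CPM, with replicate 1 below all wt libraries and the rest above them.

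HSD17B2 acts beside other enzymes that inactivate or conjugate steroids, and these were called in 1 direction. Of 21 genes, 15 were tested, 5 were called higher and 0 lower (0 lower also by DESeq2 and limma-voom, and 0 with an unadjusted p under 0.05), with 10.4% and 8.77% of all tested genes called in these directions, and the median was 0.35. STS, the sulfatase that frees steroids from their sulfates, was at 3.93 ± 0.970 CPM in the wt libraries and 23.1 ± 4.07 CPM in those labelled Axin1+ (SD, n = 4 each; log2 fold change 2.55, SE 0.22, adjusted p = 4.5e-05). It thus acts opposite to the conjugating enzymes of its list. UGT1A1, a glucuronosyltransferase, rose by 2.19 (SE 0.30, adjusted p = 0.000912), although it shares exons with other UGT1A genes, and SULT1A1, a sulfotransferase with a near-identical paralog, by 1.87 (SE 0.43, adjusted p = 0.0137). PAPSS2 and AKR1C4, named after their values were seen, were the other 2. The count was 3 without replicate 4 labelled Axin1+ and 8 without wt replicate 1.

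Receptors of the sex steroids were at or near 0. ESR1 had 0 counts in every library, PGR was below 0.1 CPM on average in both groups, and of 16 receptor and partner genes 11 were tested, 0 were called higher by edgeR or limma-voom (1 by each with an unadjusted p under 0.05, and 1 called by DESeq2) and 3 were called lower by edgeR, with a median of -0.18. Over all tested genes edgeR called 10.4% higher and 8.77% lower, so with 11 genes these counts do not set the list apart. FKBP4, a co-chaperone of steroid receptors, fell by 1.07 on the log2 scale (SE 0.12, adjusted p = 0.00029). GPER1, a membrane estrogen receptor, fell by 1.43 (SE 0.33, adjusted p = 0.0133) and ESRRA, an orphan receptor, by 0.57 (SE 0.15, adjusted p = 0.0225). GPER1 was scarce, at 1.25 CPM on average in the wt libraries and 0.457 CPM in the others. The calls of GPER1 and ESRRA were both lost without wt replicate 2 (adjusted p = 0.0557 and 0.0543, which left 1 gene called), and that of ESRRA also without replicate 3 or 4 labelled Axin1+ (adjusted p = 0.0560 and 0.0705).

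HSD17B6 can also act on retinoids. Of 22 genes of retinoid handling, 14 were tested, and the median was 0.25. Among the 14, 2 were called higher and 1 lower, beside 10.4% and 8.77% of all tested genes. CRABP1, a retinoic acid binding protein, rose by 2.89 (SE 0.42, adjusted p = 0.00121). CRABP1 was scarce, with 2, 9, 4 and 2 counts in the wt libraries (replicates 1 to 4). In those labelled Axin1+ it had 67, 35, 56 and 50 counts. ALDH1A1, which makes retinoic acid, rose by 0.83 (SE 0.25, adjusted p = 0.0401), while the receptor RARG fell by 0.64 (SE 0.18, adjusted p = 0.0334). The call of RARG was lost when any 1 library other than replicate 1 of either group was left out (adjusted p from 0.0606 to 0.104), as was that of ALDH1A1 except when wt replicate 4 was left out (0.0576 to 0.121). The count was 1 without wt replicate 3 or without replicate 4 labelled Axin1+.

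HSD17B4, the D-bifunctional protein, carries out the hydration and dehydrogenation steps of peroxisomal beta-oxidation. It was at 121, 156, 180 and 153 CPM in the wt libraries and at 141, 176, 202 and 212 CPM in those labelled Axin1+. Replicate 1 was the lowest library of each group, and the ranges overlapped. Its log2 fold change was 0.26 (SE 0.16, 95% interval -0.10 to 0.61; adjusted p = 0.291). Of 21 other genes of this pathway, 19 were tested, with a median of 0.06. Among the 19, 1 was called higher and 2 lower, beside 10.4% and 8.77% of all tested genes. HACL1, which acts in alpha-oxidation, rose by 0.66 (SE 0.18, adjusted p = 0.0261) as did BTD, whose exons overlap it on the opposite strand (0.77, adjusted p = 0.0236), whereas the oxidase ACOX2 fell by 0.56 (SE 0.13, adjusted p = 0.0160). The call of HACL1 was lost without wt replicate 2 or 3 or any of replicates 2 to 4 labelled Axin1+ (adjusted p from 0.0518 to 0.0858) and that of ACOX2 without wt replicate 2 or replicate 4 labelled Axin1+ (0.0599 and 0.0561), which left 1 gene called in these last 2 cases.

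In mitochondria, HSD17B10 degrades isoleucine and is a subunit of the RNase P that trims transfer RNAs. It was at 272, 189, 173 and 169 CPM in the wt libraries and at 139, 178, 171 and 139 CPM in those labelled Axin1+. Replicate 1 was again the extreme wt library, here the highest, and replicates 2 and 3 labelled Axin1+ lay inside the wt range. Its log2 fold change was -0.36 (SE 0.17, 95% interval -0.73 to 0.02; adjusted p = 0.169), the smallest p of the 7 genes tested.

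HSD17B8 forms, with CBR4, the reductase of mitochondrial fatty acid synthesis. Its values were 28.1, 14.8, 16.6 and 16.03 CPM in the wt libraries and 10.9, 14.6, 18.9 and 13.3 CPM in those labelled Axin1+. Wt replicate 1 was far above the other 3 wt libraries, which overlapped with the other group. The log2 fold change was -0.39 (SE 0.24, 95% interval -0.91 to 0.14; adjusted p = 0.282), and -0.015 without replicate 1 of both groups. Its partner CBR4 rose by 0.86 (SE 0.19, adjusted p = 0.0123), beside a fall of PALLD, whose exons overlap CBR4 on the opposite strand (-2.16, SE 0.43, adjusted p = 0.00629).

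Around HSD17B8 and HSD17B10, 17 of 18 listed genes of RNase P, isoleucine breakdown and mitochondrial fatty acid synthesis were tested, with a median of -0.02. Among the 17, 1 (CBR4) was called higher and 2 lower, beside 10.4% and 8.77% of all tested genes. LIAS, which makes lipoic acid, fell by 0.77 (SE 0.15, adjusted p = 0.00541), and DBT, a subunit of the branched-chain keto acid dehydrogenase, by 0.56 (SE 0.16, adjusted p = 0.0329). Exons of LIAS, at 14.0 to 29.2 CPM, overlap 363 bases of RPL9 on the opposite strand. RPL9 was far more abundant, at 497 to 1499 CPM (log2 fold change -0.72, SE 0.26, adjusted p = 0.0755). The call of DBT was lost without wt replicate 2 or any of replicates 2 to 4 labelled Axin1+ (adjusted p from 0.0701 to 0.102), which left 2 genes called.

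HSD17B12 reduces 3-ketoacyl-CoA in the fatty acid elongation cycle. It was at 39.6, 63.2, 75.4 and 49.6 CPM in the wt libraries and at 62.6, 78.4, 67.3 and 86.7 CPM in those labelled Axin1+. The ranges overlapped, with wt replicates 1 and 4 below all libraries of the other group. The log2 fold change was 0.37 (SE 0.19, 95% interval -0.05 to 0.80; adjusted p = 0.202). Of 12 other elongation genes 11 were tested, with a median of 0.14. Among the 11, 1 was called higher and 2 lower, beside 10.4% and 8.77% of all tested genes. The dehydratase HACD1 fell by 0.84 (SE 0.13, adjusted p = 0.00179) and the elongase ELOVL1 by 0.41 (SE 0.12, adjusted p = 0.0418), while ELOVL4 rose by 2.05 (SE 0.47, adjusted p = 0.0134). ELOVL4 was scarce, with 7, 3, 3 and 2 counts in the wt libraries. Its mean was 0.309 CPM there and 1.24 CPM in the others. The call of ELOVL1 was lost when any 1 library other than replicate 1 of either group was left out (adjusted p from 0.0674 to 0.130), and that of ELOVL4 without wt replicate 2 (0.0522, which left 1 gene called), whereas 5 were called without wt replicate 1.

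HSD17B11, a lipid droplet protein, was at 69.9, 103, 106 and 114 CPM in the wt libraries and at 80.8, 109, 107 and 119 CPM in those labelled Axin1+. Replicate 1 was the lowest in both groups, and the ranges were nearly the same. Its log2 fold change was 0.08 (SE 0.17, 95% interval -0.30 to 0.46; adjusted p = 0.771) and -0.051 without wt replicate 1. HSD17B13, a lipid droplet protein known from hepatocytes, had only 1 to 6 counts per library, or 0.255 ± 0.0776 CPM in the wt libraries and 0.194 ± 0.205 CPM in the others (SD, n = 4 each). Its ranges overlapped, and HSD17B13 was not tested.

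Lipid droplets, the place of HSD17B11 and HSD17B13, store triglycerides and cholesterol esters. Of 26 other droplet genes 23 were tested, with a median of 0.42. Among the 23, 6 were called higher and 1 lower, beside 10.4% and 8.77% of all tested genes. MGLL, the monoacylglycerol lipase, rose from 19.3 ± 4.90 to 66.0 ± 13.0 CPM (SD, n = 4 each; log2 fold change 1.77, SE 0.22, adjusted p = 0.00046). G0S2, an inhibitor of the triglyceride lipase, rose by 2.49 (SE 0.42, adjusted p = 0.00298), and the coat protein PLIN2 fell by 0.72 (SE 0.11, adjusted p = 0.00148). G0S2 was scarce in the wt libraries, at 0.943 CPM on average, against 5.24 CPM in the others. PLIN3, DGAT2, LIPE and FAF2, named after their values were seen, were the other 4 called higher. These lists were drawn up with earlier results of these data known, and a share is to be read against the 19.2% called over all tested genes: 30.4% of the tested lipid droplet genes, 33.3% for inactivation and conjugation, and 15.8% to 27.3% for the other 6 lists.

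Levels can be set against each other only per length. Per kb of exon (the union of all annotated exons), the order of the wt means was HSD17B10 (180 ± 43.4 CPM per kb), HSD17B14 (47.4 ± 16.5), HSD17B11 (40.3 ± 7.98), HSD17B8 (16.1 ± 5.31), HSD17B4 (14.3 ± 2.27), HSD17B12 (7.27 ± 1.995), HSD17B2 (1.65 ± 0.647), HSD17B1 (0.530 ± 0.383), HSD17B6 (0.237 ± 0.117) and HSD17B13 (0.106 ± 0.0324; SD, n = 4). The most abundant member, HSD17B10, lay above all others in every library. Neighbours whose ranges overlapped in the wt libraries were HSD17B14 with HSD17B11, HSD17B8 with HSD17B4, and each of the pairs from HSD17B2 down to HSD17B13. In wt replicate 1, HSD17B2 (0.690 CPM per kb) was below HSD17B1 (1.10), while in the other 3 wt libraries it was above it.

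In the libraries labelled Axin1+, HSD17B2 dropped from rank 7 to rank 10, with 0.00880 ± 0.0144 CPM per kb (SD, n = 4) and a highest value of 0.0300, inside the range of HSD17B13 (0.0163 to 0.207). HSD17B14 changed place with HSD17B11, and HSD17B8 with HSD17B4, whose ranges overlapped, and HSD17B10 stayed first. Per kb of the principal coding transcript HSD17B4 came second among the wt means (56.9 CPM per kb) and HSD17B2 was at 10.8. The union length of HSD17B2 is 9550 bases and its principal transcript 1455 bases, and on both lengths it held rank 7.

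**Figure D3:**
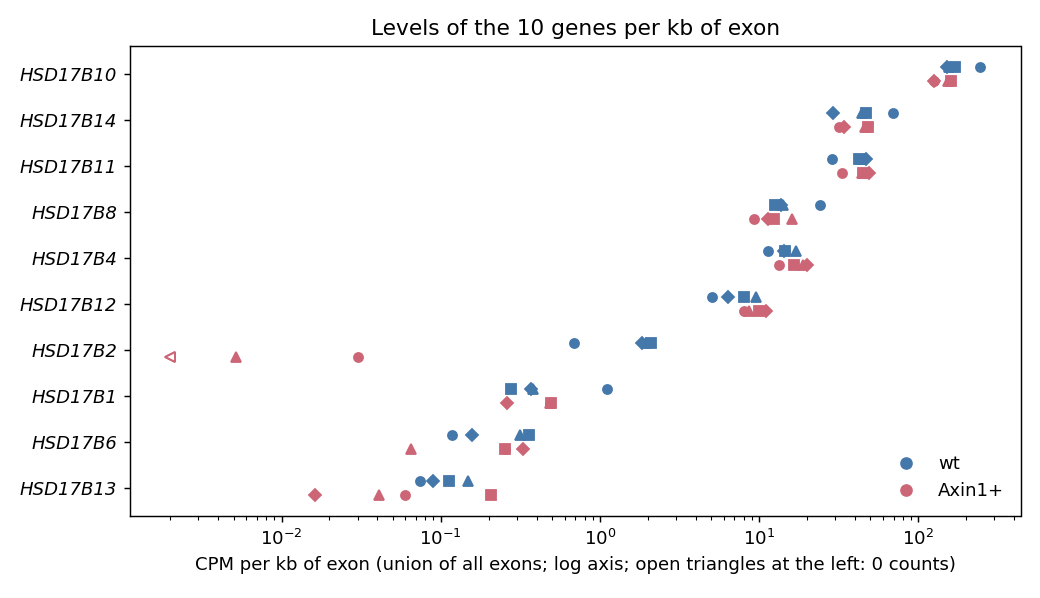
CPM per kb of exon on a log axis for the 10 genes in each library (wt in blue, libraries labelled Axin1+ in red, marker shape by replicate number), ordered by the wt mean. HSD17B10 lies between 125 and 244 CPM per kb in every library, and HSD17B2 moves from between 0.690 and 2.11 in the wt libraries to at most 0.0300 in the others, where open triangles stand for 0 counts.

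No tested gene near HSD17B2 was called. Within 1 Mb, 9 other genes were tested and 0 were called by edgeR, DESeq2 or limma-voom. An unadjusted p under 0.05 was found for 1, 2 and 1 of them by these tools. Their median log2 fold change was 0.04, beside -0.08 over the 681 tested genes of chromosome 16. Of those 681, 42 were called higher and 73 lower by edgeR, and of all tested genes 19.2% were called. With only 9 genes, 0 called does not set this region apart. On the side toward the chromosome start, the nearest tested protein-coding genes were PLCG2 (-0.42, SE 0.32) and CMIP (-0.09, SE 0.11). On the other side they were MPHOSPH6 (0.33, SE 0.16), HSBP1 (0.36, SE 0.13) and MLYCD (-0.07, SE 0.15). MPHOSPH6, 49.3 kb away, was at 15.9 ± 1.26 CPM in the wt libraries and 20.0 ± 3.91 CPM in the others (SD, n = 4 each), with an adjusted p of 0.183 by edgeR. HSBP1, 1709 kb away, passed the threshold only without replicate 1 labelled Axin1+ among the single libraries left out (adjusted p = 0.0230, against 0.0826 with all 8 libraries). The antisense gene HSD17B2-AS1, which overlaps HSD17B2 over 248 bases, had 0 counts in every library.

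Farther out, within 5 Mb, 39 genes were tested, 1 was called higher and 3 lower (10.4% and 8.77% over all tested genes), with a median of -0.07. The lowest of them, named after its values were seen, was CDYL2, a chromatin reader 1231 kb toward the chromosome start, at 3.70 ± 1.47 CPM in the wt libraries and 0.154 ± 0.163 CPM in those labelled Axin1+ (SD, n = 4 each; log2 fold change -4.41, SE 0.56, adjusted p = 0.000585). MAF, a transcription factor 2434 kb away and also named after the fact, was lower too (-2.11, SE 0.57, adjusted p = 0.0254), with a wt replicate 1 of 0.445 CPM that lay below all libraries labelled Axin1+. For the other members, the median within 1 Mb lay between -0.11 and 0.36. It was highest around HSD17B4, itself at 0.26, where 2 of 4 tested genes were called higher and 0 lower. Around HSD17B1 it was 0.34, with 19 of 54 called higher and 1 lower. The lowest was around HSD17B6, with 5 of 76 called higher and 15 lower.

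**Figure D4:**
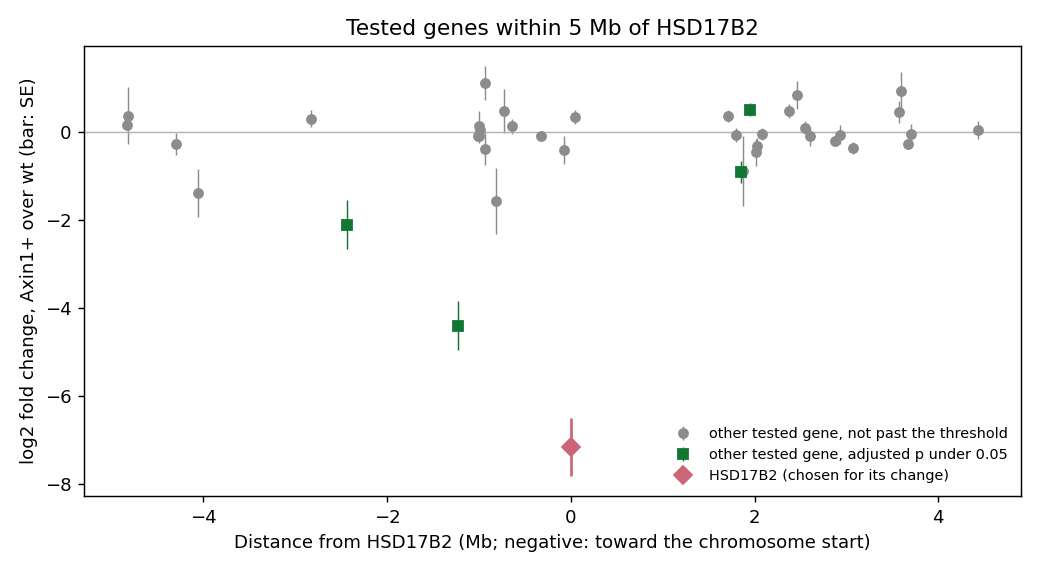
Log2 fold change, libraries labelled Axin1+ over wt, of the tested genes within 5 Mb of HSD17B2 against their distance from it in Mb, with the standard error as a bar, genes past an adjusted p of 0.05 as green squares and HSD17B2 as a red diamond. HSD17B2, drawn at -7.17 as a description, was chosen for its change. None of the 9 other genes tested within 1 Mb passed the threshold, which 19.2% of all tested genes passed. CDYL2 at -4.41 is the lowest of the other genes within 5 Mb.

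Over the 8 libraries, the genes whose log2 CPM followed HSD17B2 most closely among 14198 compared were MESP2 (Pearson r = 0.995), MYRF (0.995), FKBP4 (0.994), DPH5 (0.993) and IL20RA (0.991), given as a description. All 5 were lower in the libraries labelled Axin1+ (log2 fold changes from -4.53 to -0.96), so most of each r is the difference between the groups. MESP2 was scarce, at 1.06 CPM on average in the wt libraries and 0.171 CPM in the others. IL20RA, a cytokine receptor subunit, went from 5.81 to 0.243 CPM, and its wt replicate 1, at 4.63 CPM, was the lowest wt library, as for HSD17B2. The other 4 genes also had their lowest wt value in replicate 1. The choice of these genes by correlation over the same 8 libraries favours such a shared low value, so it adds no further likeness. Among the other 9 members the correlation with HSD17B2 ran from -0.54 (HSD17B12) to 0.46 (HSD17B10).

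Markers of other cell types were given beside HSD17B2, which placenta, another tissue rich in the enzyme, also expresses. Trophoblast markers summed to between 20.0 and 36.0 CPM in the wt libraries and between 11.9 and 16.1 CPM in those labelled Axin1+, almost all of it GATA3 (25.8 ± 6.82 and 14.3 ± 1.91 CPM; SD, n = 4 each), with CSH1, PSG1, CGB3 and CGB5 at 0 in every library. Fibroblast markers stayed at or below 4.63 CPM in sum. Endothelial markers summed to between 4.58 and 6.77 CPM in the wt libraries and between 34.1 and 58.5 CPM in the others, again from 1 gene, PECAM1, with TEK at 0. Wherever these sums move with HSD17B2, their part in its change was not tested.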

How the data were processed

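RNA of 4 wt and 4 Axin1+ samples, grouped by the titles and genotype in the labels, was sequenced from mRNA libraries. The authors deposited raw counts per gene without normalization, as the whole numbers and unequal totals of the table show. Reads were handled with bcl2fastq, fastp 0.23.1 and STAR 2.7.4 on GRCh38, per the submitters' processing notes. The annotation, the counting program and the use of strand are not given in the sources used here. Each column was matched to its sample by the name in the labels.

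The analysis used edgeR 4.0.16 in R 4.3.3, with filterByExpr (minimum count 10, minimum total 15), TMM scaling, and the quasi-likelihood test on all 8 libraries without covariates, with two-sided p-values and Benjamini-Hochberg adjustment across the 14289 genes tested (threshold 0.05). Called means past that threshold. Standard errors were taken from each gene's log2 fold change and its F statistic, and intervals are at 95%. Log2 CPM for correlations used a prior count of 2. For a count of 0 the limit is 3 counts, and intervals on counts are exact Poisson intervals that cover counting error only. With totals from 11232951 to 26400782, 3 counts correspond to between 0.108 and 0.267 CPM. Symbols, positions, exon lengths and coding sequences came from GENCODE release 29 (57943 of 58206 identifiers found). The tests were checked on simulated counts, where DESeq2 gave a larger share of false calls than edgeR.

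Members and lists were chosen with earlier results of these data known. Named genes are the 10 members, the 3 genes with the smallest p in each list, the 3 nearest tested protein-coding genes on each side of HSD17B2, the 5 genes most alike to it, and AXIN1. Of these, 2 genes are not reported here. Alternatives were 3 scalings (DESeq2 size factors, upper quartile, totals alone), 2 filters (none, or a mean of 1 CPM), the Wald test of DESeq2 1.42.0, limma-voom (limma 3.58.1), a replicate block, a threshold of 0.01, leaving out each library, other windows and other lengths. Leaving out replicate 1 of both groups and the principal transcript length were chosen after seeing the data. A planned comparison of proteins was replaced by one of coding sequences.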

Additional observations from a re-analysis of the deposited data

Results flagged for a closer look

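Each group of 4 libraries was screened for a library far from the other 3 (the gap to the nearest library as a share of the group's range, above Dixon's critical value), which chance exceeds in about 1 in 20 groups. Of 90 groups checked over 45 genes, 7 exceeded it, and 3 of these belong to the dehydrogenases. HSD17B1 was at 6.23 CPM in wt replicate 1, with the nearest library at 2.14 CPM (share 0.876), and at 1.48 CPM in replicate 4 labelled Axin1+, with the nearest at 2.76 CPM (share 0.964). HSD17B8 was at 28.1 CPM in wt replicate 1, with the nearest at 16.6 CPM (share 0.865). Wt replicate 1 was also apart for IL20RA, at 4.63 CPM against 6.15 CPM (share 0.910). In the libraries labelled Axin1+, DPH5 was high in replicate 1 (16.9 against 14.4 CPM, share 0.872), MPHOSPH6 high in replicate 2 (25.8 against 18.7 CPM, share 0.850) and AXIN1 low in replicate 4 (37.7 against 47.6 CPM, share 0.939).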

How the results depend on the processing

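HSD17B2 was lower in the libraries labelled Axin1+ in all 18 alternatives, and 0 of the other members were called in any of the 18. Leaving out single libraries gave HSD17B2 log2 fold changes from -9.29 to -6.70, and leaving out replicate 1 of both groups gave -9.56. Of 126 values of the other 7 tested members, 122 kept direction and call and 4 turned sign: HSD17B1 (0.34 without wt replicate 1, 0.27 without both replicates 1), HSD17B11 (-0.051 without wt replicate 1) and HSD17B14 (0.094 without both). Over the single libraries left out, HSD17B1 ran from -0.51 to 0.34, HSD17B11 from -0.051 to 0.19 and HSD17B14 from -0.42 to -0.0046. MLYCD turned to 0.0020 with total counts only. Replicate numbers did not pair the samples (correlations of same-numbered deviations -0.06, 0.01, -0.03 and 0.23), and with the replicate block 2033 genes were called, 0 of them among the other members, and 0 of the steroid synthesis list. The block ended the calls of HSD3B7 (adjusted p = 0.0765), SRD5A3 (0.0760) and ELOVL1 (0.105).

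Over all genes 2738 were called (1485 higher, 54.2%, and 1253 lower), against 964 at an adjusted p under 0.01, 1394 to 3523 without single libraries (lowest without replicate 4 labelled Axin1+, with 1531 without its replicate 3 and 1508 without wt replicate 2) and 4623 without both replicates 1. With total counts only the split was 1724 higher (66.5%) and 868 lower, and the median over all genes was 0.09. At an adjusted p under 0.01, the counts called were 0 for steroid synthesis and peroxisomal beta-oxidation, 2 for inactivation and conjugation, 3 for lipid droplet, and 1 each for receptors, retinoid, mitochondrial and elongation genes. Without single libraries they ran from 0 to 4 (steroid synthesis), 3 to 8 (inactivation), 1 to 4 (receptors), 1 to 4 (retinoid), 1 to 4 (peroxisomal), 2 to 4 (mitochondrial), 1 to 5 (elongation) and 5 to 9 (lipid droplet). Without both replicates 1 they were 5, 8, 5, 3, 6, 4, 6 and 13 in that order. Steroid synthesis had 1 called with total counts only or limma-voom and 4 with no filter, inactivation 9 with no filter, retinoid genes 8 with no filter and 5 by DESeq2, and lipid droplet genes 11 by DESeq2.

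The neighbours' median moved to -0.045 (250 kb) and -0.066 (5 Mb) for HSD17B2, 0.57 (5 Mb) for HSD17B4, 0.059 (250 kb) for HSD17B6 and -0.12 (5 Mb) for HSD17B12. Levels per kb of the longest transcript were 27.6 for HSD17B4, 52.1 for HSD17B11 and 13.3 for HSD17B12, and per kb of the principal transcript 10.8 for HSD17B2, 56.9 for HSD17B4, 0.355 for HSD17B6, 52.1 for HSD17B11 and 22.2 for HSD17B12. The list medians that moved lay between 0.58 and 0.73 for inactivation and conjugation, 0.16 and 0.34 for retinoid genes, -0.10 and -0.07 for elongation, and at 0.31 for lipid droplet genes. Depth limits HSD17B6 and HSD17B13, which had at most 19 counts.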
